A study of Mus musculus with 6 samples.

Results

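Foxp3 is the lineage-defining transcription factor of Tregs, and it acts in complexes with other DNA-binding proteins. The 10 genes described here are Foxp3 and 9 factors known to pair with it or to share its target sites in T cells: Ikzf1, Ikzf2, Ikzf3, Ikzf4, Runx1, Runx3, Cbfb, Foxp1 and Satb1. They were chosen by name, not by a measured value, and all 10 were found among the 15319 gene symbols listed. They were followed in RNA-Seq libraries of tumor-infiltrating Tregs, 3 from WT and 3 from cKO mice, to see whether the transcripts of Foxp3 and its partners differ when Tregs lack Ku70, the product of Xrcc6.

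WT mice were Foxp3 Yfp-Cre and cKO mice were Xrcc6 flox/flox Foxp3 Yfp-Cre, both of C57BL/6J background. Both groups thus carried the same Cre and reporter allele, which is driven by Foxp3 itself, and no Tregs with an unmodified Foxp3 allele were among the libraries analysed. All mice received cells of LLC, a mouse lung carcinoma line, into the tail vein at 8 to 10 weeks of age, and Tregs were taken from the lung tumors 21 days later. The labels do not say whether the 3 libraries of a group come from separate mice, so p-values measure the spread between these libraries, which may be technical.

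Foxp3 is a forkhead protein that binds DNA with a forkhead domain and both raises and lowers transcription, depending on what it is bound to. Ikaros family proteins (Ikzf1 to Ikzf5) are zinc finger factors that recruit corepressors. Runx proteins bind DNA as pairs with Cbfb, a subunit without a DNA-binding domain of its own, and Foxp3 uses Runx1 to reach many of its targets. Foxp1, a close relative of Foxp3, can pair with it through a leucine zipper, and Satb1 organizes chromatin loops in developing and conventional T cells and is itself held down by Foxp3 in Tregs.

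The letters of the DNA sites that Runx and Ikaros proteins bind were looked for in 17 promoter windows of 7 of the 10 genes. Shown are 2 of these windows, 1 of Foxp3 and 1 of Runx3, the window that held the most matches. Both are the 250 bases before an annotated start in RefSeq on GRCm38.p6, on the plus strand, and capitals mark matches to TGTGGT (Runx, or ACCACA on the other strand) and TGGGAA (Ikaros, or TTCCCA). The letters of TGTTTAC, a forkhead site, were searched too, on both strands.
Foxp3, chrX:7579426-7579675: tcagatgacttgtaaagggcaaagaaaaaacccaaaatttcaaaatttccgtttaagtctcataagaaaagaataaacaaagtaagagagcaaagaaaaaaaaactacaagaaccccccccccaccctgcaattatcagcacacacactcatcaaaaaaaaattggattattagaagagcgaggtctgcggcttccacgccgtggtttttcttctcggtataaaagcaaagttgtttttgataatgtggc
Runx3, chr4:135120395-135120644: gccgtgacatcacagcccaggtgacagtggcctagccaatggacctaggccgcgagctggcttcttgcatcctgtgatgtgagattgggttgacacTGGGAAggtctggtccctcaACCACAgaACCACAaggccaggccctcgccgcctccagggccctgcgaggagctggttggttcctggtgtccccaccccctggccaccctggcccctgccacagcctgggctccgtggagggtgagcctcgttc
In the Runx3 window the Ikaros letters began 154 bases before the start, and the Runx letters stood as ACCACA at 134 and 126 bases before it, separated by a pair of bases. Neither of the 2 windows of Foxp3 held any of the 3 motifs, nor did the other window of Runx3. Windows were given for 7 of the 10 genes (17 windows, none for Ikzf2, Ikzf3 or Ikzf4), and besides Runx3 the letters were met only in 1 of the 5 windows of Satb1, where TTCCCA began 70 bases before the start. Among all 32851 windows of that length, 14% held the Runx letters, 21.6% the Ikaros letters and 3.17% the forkhead letters. A match is a stretch of letters and was not tested as a binding site.

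Levels are given as CPM (counts over the library total after TMM scaling), and where a value is given for each library the order is always replicates 1, 2 and 3 of WT and then of cKO. Total counts were 19032620 to 23159815 per library. All 10 genes were abundant, with 1809 to 12666 counts per library, so that the counting error was at most 2.35% of any value, and the spread described below is spread between libraries. Counting errors and limits cover counting only. WT replicate 2 listed 11513 genes with at least 1 count, where the other 5 libraries listed 14442 to 14737, so the fold changes of the 10 genes and the lists of other Foxp3 genes are also given without it. Xrcc6 itself was at 20.9, 63.1 and 23.8 CPM across WT and 5.24, 3.51 and 4.18 CPM across cKO libraries, a log2 fold change of -3.06 (Benjamini-Hochberg adjusted p = 0.984 from the quasi-likelihood test of edgeR), and of -2.38 without WT replicate 2 (adjusted p = 0.0196, same test). The sorted cells carried the markers of Tregs in both groups. All 7 Treg markers were listed and summed to 3280 to 4000 CPM in WT and 2790 to 3530 CPM in cKO libraries, and the T cell markers (7 of 10 listed) to 4210 to 6230 and 4770 to 5860 CPM.

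Between the genotypes no difference was called for any of the 10 genes. The group means of Ikzf2, Ikzf4 and Cbfb lay further apart than the SD of either group. Log2 fold changes of cKO over WT ran from -0.28 (Ikzf4) to 0.25 (Foxp3), with 5 genes higher and 5 lower in cKO. At an adjusted p under 0.05, 0 of the 10 genes were called, and 0% of the 15315 genes tested were (edgeR's quasi-likelihood test, 0 genes; DESeq2 called 2). At an unadjusted p under 0.05 it was again 0 of the 10, beside 1.81% of all genes. The adjusted p was 0.996 for Ikzf3 and 0.984 for each of the others from the same edgeR test. The CPM of the groups overlapped for all 10 genes, while they did not overlap for 8.24% of all genes. Without WT replicate 2, 0 of the 10 passed either threshold (0.00654% of genes passed at an adjusted p under 0.05, which was Xrcc6 alone, and 3.01% at an unadjusted one), and the groups were apart for 1 of the 10, Ikzf2, against 16.0% of all genes. The median log2 fold change of the 10 was 0.04, as was that of all genes, and without WT replicate 2 it was 0.07 with 7 genes higher, against -0.01 over all genes. For single genes a two-sided exact permutation test is added, whose p has a floor of 0.1 at this number of libraries. A p above the threshold does not show equal levels, and the 95% intervals give the sizes of difference that remained possible.

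**Figure D1:**
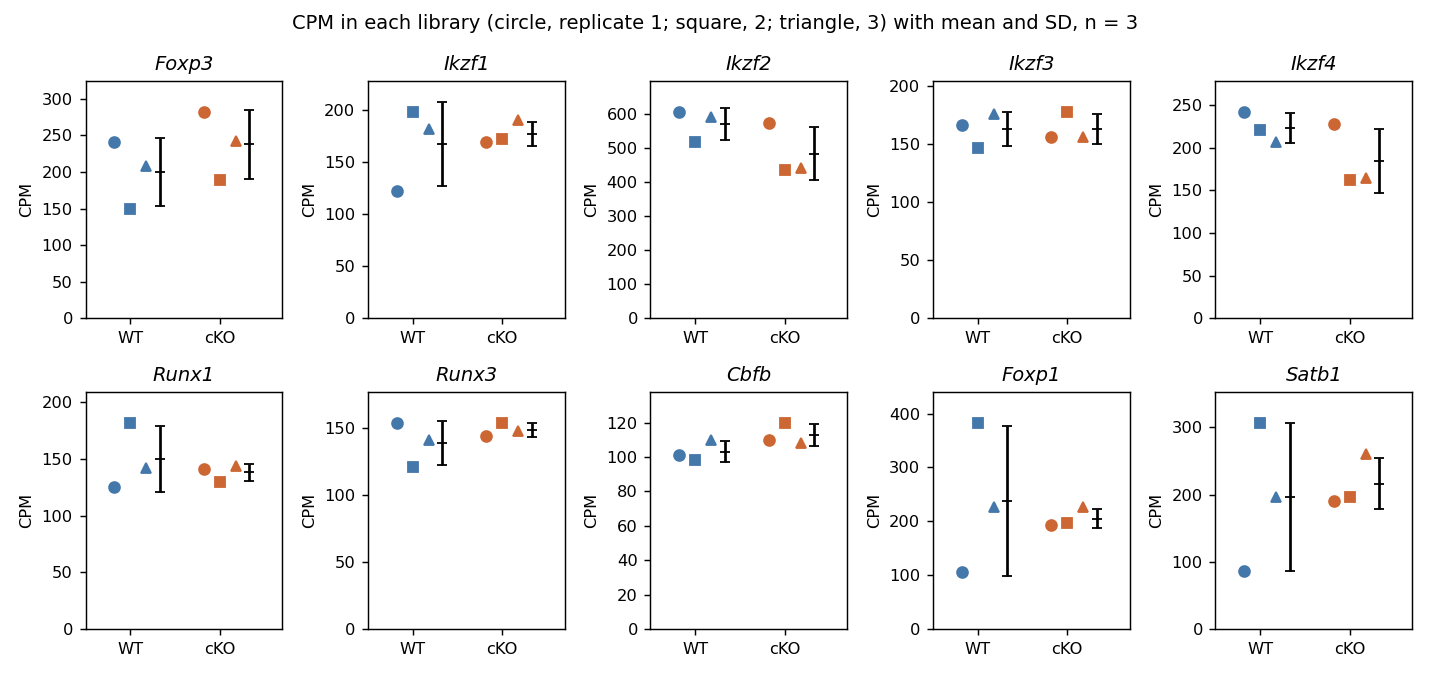
CPM of each of the 10 genes (y axis, from 0) in the WT (blue) and cKO (orange) libraries, where circle, square and triangle are replicates 1, 2 and 3 and the black bar is the mean with its SD (n = 3). The groups overlap in every panel, and Foxp1 and Satb1 have by far the longest WT bars, from 105 to 383 CPM and from 86.5 to 307 CPM.

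Foxp3 was at 241, 150 and 208 CPM across WT and 282, 189 and 242 CPM across cKO libraries. WT replicate 2 was the lowest and cKO replicate 1 the highest, and the other 4 libraries lay between 189 and 242 CPM. The mean was 200 ± 45.9 CPM (SD, n = 3) in WT and 237 ± 46.8 CPM (SD, n = 3) in cKO, a fold of 1.19 with a 95% interval of 0.82 to 1.72 from edgeR. Its log2 fold change had a value of 0.25 (SE 0.23), with p = 0.4 by the exact permutation test, and it came to 0.08 without WT replicate 2, with an interval of -0.34 to 0.50. Foxp3 transcripts were thus not detectably lower in the sorted Tregs without Ku70. With all libraries the interval ended at a log2 fold change of -0.28 on the lower side. The paper sorted mouse Tregs of spleen and lymph nodes on the YFP of the Foxp3 reporter, among other markers. If tumor Tregs were sorted likewise, cells without the reporter were not sampled. The paper also reports fewer Tregs in lung tumors of cKO mice, and lower FOXP3 protein in its melanoma lung model, which RNA of sorted cells does not measure. In other material it reports lower FOXP3 in lung of cKO mice without tumors. It reports the same for human Tregs induced in culture after Ku70 knockdown, where FOXP3 was examined by qRT-PCR too. In bulk RNA a smaller number of cells with a transcript and less of it in each cell cannot be told apart. The gene lies on chrX:7573644-7595245 of GRCm38 (GENCODE vM21, plus strand) and overlaps Ppp1r3f and Ccdc22 on the other strand and the noncoding Flicr. Whether the counting used strand is not given in the sources used here, so reads from these neighbours may be among its counts.

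Per kb of exon, which allows genes to be set side by side, Ikzf2 and Foxp3 were at the top. Their levels were 55.2 ± 7.87 and 53.3 ± 11.3 CPM per kb over the 6 libraries (SD, n = 6). Ikzf3 followed at 44.7, and then came Cbfb at 37.0, Ikzf4 at 35.0, Runx3 at 34.4, Ikzf1 at 30.8 and Foxp1 at 28.2 CPM per kb. Runx1 at 19.3 CPM per kb and Satb1, with 7.52 to 26.8 CPM per kb across libraries, were at the lower end. The ranges of every pair of neighbours in this order overlapped, so only genes further apart in it are separated by these libraries. Exon lengths were those of all protein-coding transcripts of a gene together, and a Treg may use only some of these exons.

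The Ikaros family gave the 2 largest negative log2 fold changes of the 10 genes. Ikzf2 encodes Helios, which is kept in most thymus-derived Tregs and helps hold their identity. It was at 605, 516 and 590 CPM across WT and 573, 435 and 441 CPM across cKO libraries. Of the WT libraries only replicate 2 was below the highest cKO library, and cKO replicates 2 and 3 were below all WT libraries. The log2 fold change was -0.24 (95% interval -0.67 to 0.19 from edgeR, exact permutation test p = 0.2), and -0.31 (-0.71 to 0.09) without WT replicate 2. The limma fit with library weights gave -0.36 with an unadjusted p of 0.048, which adjustment took above the threshold. On GRCm38 the gene lies on chr1:69531214-69687245. Ikzf4, on chr10:128630843-128645991, encodes Eos, which works with Foxp3 in gene silencing. It was at 242, 221 and 207 CPM across WT and 228, 162 and 164 CPM across cKO libraries. As for Ikzf2, cKO replicates 2 and 3 were below all WT libraries and cKO replicate 1 was among them. This gave a log2 fold change of -0.28 (95% interval -0.70 to 0.15 from edgeR, exact permutation test p = 0.3). It ranged from -0.46 to -0.19 as each library was left out, and the -0.46, without cKO replicate 1, had an unadjusted p of 0.0328 and did not pass edgeR's adjustment.

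Ikzf1 (chr11:11685003-11772926) encodes Ikaros, the founding member, expressed throughout lymphocytes, and Ikzf3 (chr11:98464902-98546031) encodes Aiolos, which silences Il2 in T cells. Ikzf1 was at 122, 198 and 182 CPM across WT and 169, 172 and 190 CPM across cKO libraries. All cKO libraries lay between the lowest and the highest WT library. Its log2 fold change was 0.08 (95% interval -0.39 to 0.55 from edgeR), and it turned to -0.10 when WT replicate 1, the lowest library, was left out. Ikzf3 was at 167, 147 and 176 CPM across WT and 156, 178 and 156 CPM across cKO libraries, means of 164 ± 14.7 and 163 ± 13.1 CPM (SD, n = 3). It was the gene with the log2 fold change nearest 0, and its sign differed among the alternatives, which gave -0.08 to 0.06. Its 95% interval of -0.33 to 0.33 bounds a difference of either sign.

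Runx3 (chr4:135120652-135177990) and Cbfb (chr8:105170674-105217989) were among the steadiest of the 10 genes. Cbfb was at 101, 98.4 and 110 CPM across WT and 110, 120 and 108 CPM across cKO libraries. Its log2 fold change was 0.13 with a 95% interval of -0.17 to 0.42 from edgeR, the narrowest of the 10. Runx3 was at 154, 121 and 141 CPM across WT and 144, 154 and 148 CPM across cKO libraries. The cKO libraries of both genes stood close together, with a highest to lowest ratio of 1.07 for Runx3 and 1.11 for Cbfb. The log2 fold change of Runx3, which together with Runx1 sustains Foxp3 transcription, was 0.10 (-0.23 to 0.43). Runx1 (chr16:92601466-92826149) was at 125, 182 and 142 CPM across WT and 141, 130 and 144 CPM across cKO libraries. WT replicate 2 was the highest library, and the log2 fold change of -0.11 became 0.05 without it. The ratio of Runx1 plus Runx3 to Cbfb per kb, the DNA-binding subunits over their shared partner, was 1.54, 1.58 and 1.40 across WT and 1.41, 1.32 and 1.47 across cKO libraries (p = 0.3 by the exact permutation test).

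Foxp1 and Satb1 differed more among the WT libraries than between the genotypes. Foxp1 was at 105, 383 and 226 CPM across WT and 193, 196 and 226 CPM across cKO libraries. Satb1 was at 86.5, 307 and 197 CPM across WT and 191, 197 and 260 CPM across cKO libraries. For both genes WT replicate 1 was the lowest of the 6 libraries and WT replicate 2 the highest, and the cKO libraries lay between them. The highest WT library was 3.65 times the lowest for Foxp1 and 3.56 times for Satb1. Among the 8447 genes with a mean of at least 10 CPM, 92.7% and 92.2% had a smaller ratio, and the median ratio was 1.57. The same ratio was 1.60 for Foxp3 and at most 1.63 for the other 7 genes. Foxp1 had a log2 fold change of -0.22 (95% interval -1.17 to 0.73 from edgeR) and turned to 0.31 (-0.33 to 0.94) without WT replicate 2. The value for Satb1 was 0.13 (-0.82 to 1.09), and 0.61 (-0.10 to 1.32) without WT replicate 2, which edgeR gave an unadjusted p of 0.0839 and, after adjustment, 0.997. It turned to -0.22 without WT replicate 1 and to -0.02 without cKO replicate 3. Foxp1 lies on chr6:98925338-99522721 and overlaps Gm20696, a protein-coding model on the same strand, so reads may have been divided between them. Satb1 lies on chr17:51736187-51833290. Ikzf1, Ikzf2, Ikzf4, Runx1, Runx3 and Satb1 each overlap a noncoding or unclassified model on the other strand.

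**Figure D2:**
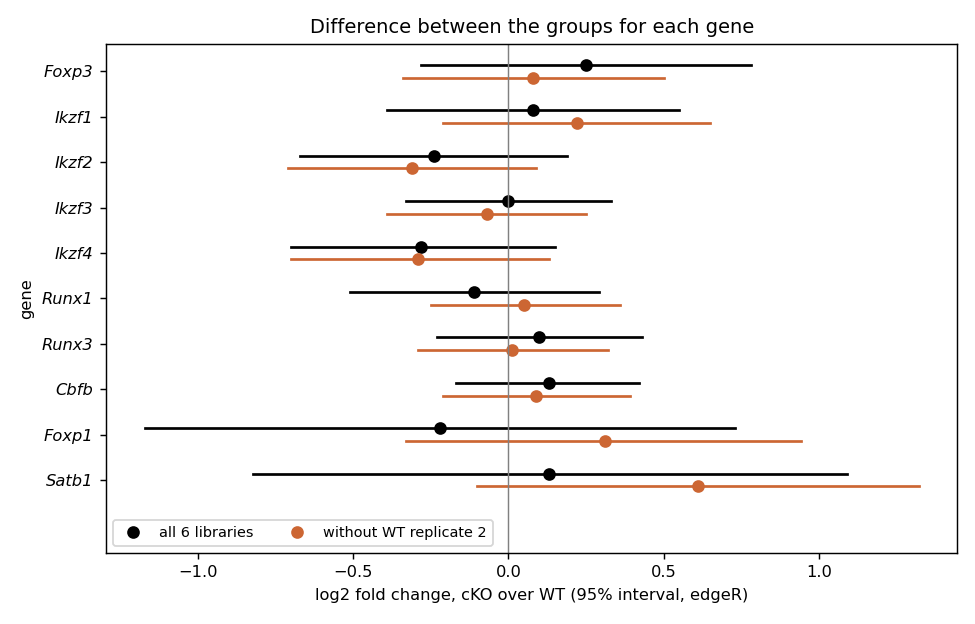
Estimated log2 fold change, cKO over WT (x axis), of each of the 10 genes (y axis) from edgeR, over all 6 libraries (black) and without WT replicate 2 (orange), where points are estimates and lines are 95% intervals. All 20 intervals cross 0, the intervals of Foxp1 and Satb1 are the longest, and Foxp1 and Runx1 have their points on opposite sides of 0 in the 2 fits.

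Some other transcription factor genes had the same order of WT libraries as Foxp1 and Satb1, and some genes that Foxp3 is known to raise had the opposite one. The genes named in this paragraph were chosen after their values were seen. Over whole lists, WT replicate 2 was above WT replicate 1 for 13 of 17 other transcription factor partners of Foxp3. WT replicate 1 was above WT replicate 2 for 14 of the 20 genes that Foxp3 raises. The same tally over all genes was not made, so these counts cannot be told apart from a general difference between the libraries. Of the 8447 genes with a mean of at least 10 CPM, 42.8% were highest in WT replicate 2 among the WT libraries. Tcf7, which encodes TCF-1, was at 125, 403 and 345 CPM across WT and 281, 305 and 443 CPM across cKO libraries. Lef1, its relative, was at 57.5, 207 and 130 CPM across WT and 116, 116 and 147 CPM across cKO libraries, and Bach2, a repressor that keeps T cells from effector programs, was at 43.6, 132 and 96.7 CPM and at 82.8, 67.7 and 95.3 CPM. WT replicate 2 was thus 3.22, 3.59 and 3.03 times WT replicate 1 for these 3 genes. In the opposite direction, WT replicate 1 was 2.57 times WT replicate 2 for Ccr8, a chemokine receptor of tumor Tregs, 2.26 times for the coinhibitory receptor Tigit, 3.02 times for Capg and 2.72 times for Fgl2. Of the 20 genes that Foxp3 raises, 6 were higher in WT replicate 2 instead. They include Ctla4 at 1260 and 1400 CPM, Icos at 943 and 1150 CPM, Lrrc32 at 443 and 520 CPM and Il10 at 160 and 173 CPM in WT replicates 1 and 2. Gpr83, a receptor gene, was another, at 8.89, 54.5 and 35.3 CPM across WT and 28.1, 25.8 and 39.9 CPM across cKO libraries. For Foxp3 itself WT replicate 1 was 1.60 times WT replicate 2. The cKO libraries lay inside the WT range for Satb1, Foxp1, Lef1, Bach2, Ccr8, Tigit, Capg and Fgl2, while for Tcf7 cKO replicate 3 lay above it. These libraries are replicates of 1 group, and the pattern is a description of 3 of them.

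**Figure D3:**
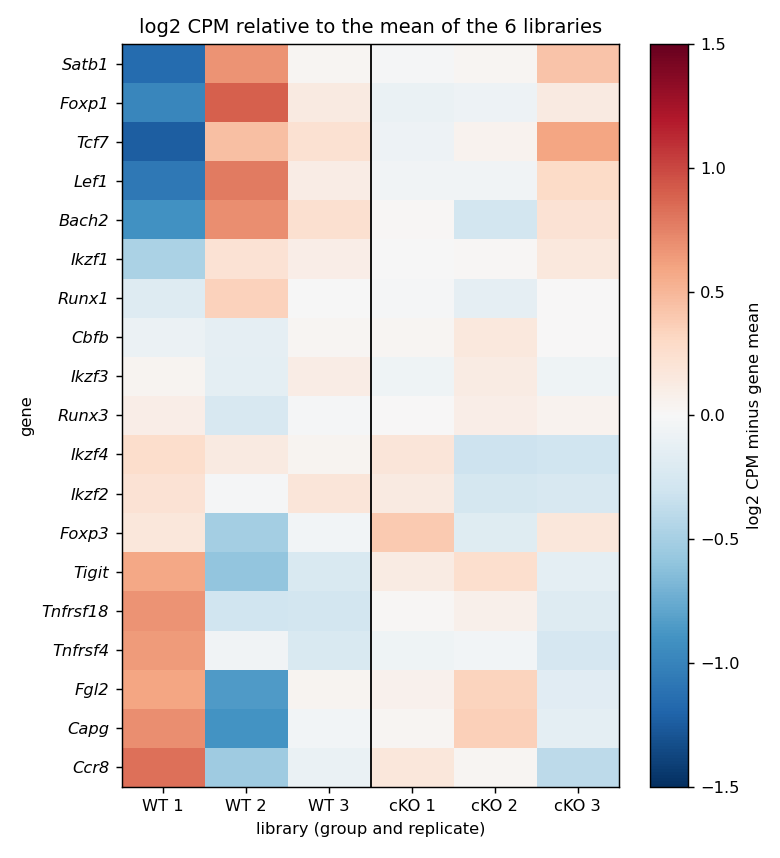
Log2 CPM of 19 genes (rows) in the 6 libraries (columns), each minus the gene's mean over the libraries, where red is above and blue below that mean and the line parts WT from cKO. Satb1, Foxp1, Tcf7, Lef1 and Bach2 are blue in WT replicate 1 and red in WT replicate 2, while Tigit, Fgl2, Capg and Ccr8 are the reverse.

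Read within a library, the balance of Foxp3 to the 2 variable partners moved with the same 2 WT libraries. Foxp1 over Foxp3 per kb was 0.228, 1.33 and 0.569 across WT and 0.357, 0.542 and 0.489 across cKO libraries. WT replicate 2 was the one library with more Foxp1 than Foxp3 per kb. The ratio of Satb1 to Foxp3 was 0.128, 0.729 and 0.338 across WT and 0.242, 0.372 and 0.383 across cKO libraries. All cKO libraries lay within the WT range for both ratios (p = 0.7 and p = 0.9 by exact permutation tests). Ikzf2 over Ikzf1, the Treg-typical over the general family member, was 2.91, 1.52 and 1.89 across WT and 1.99, 1.48 and 1.36 across cKO libraries (p = 0.4 by the exact permutation test). Without WT replicate 2 the WT mean was 0.398 for Foxp1 over Foxp3, 0.233 for Satb1 over Foxp3 and 2.40 for Ikzf2 over Ikzf1, beside cKO means of 0.463, 0.332 and 1.61.

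The make-up of the 3 families was also compared, as the share of each member in the summed CPM per kb of its family, a measure that does not depend on how libraries are scaled. In the Ikaros family Ikzf2 made up 33.4% ± 2.34 in WT and 30.5% ± 2.72 in cKO (SD, n = 3), and Ikzf3 25.0% ± 1.60 and 27.2% ± 3.44. The minor member Ikzf5, which encodes Pegasus, made up 2.83%, 3.56% and 3.51% across WT and 3.64%, 3.85% and 4.37% across cKO libraries. Every cKO library was above every WT library (p = 0.1 by the exact permutation test, its smallest, and 0.55 adjusted over the 11 shares), while the CPM of Ikzf5 overlapped between the groups. Runx3 led its family in all libraries, with 46.4% ± 2.14 in WT and 49.7% ± 3.73 in cKO, and Runx2 ranged from 17.4% to 33.8% in WT. In the Foxp family Foxp3 made up 49.9% ± 16.8 in WT and 57.1% ± 3.36 in cKO. The difference of 7.20 percentage points turned to -1.60 without WT replicate 2, where Foxp3 was at 32.3%. Foxp4, a widely expressed relative, made up 19.2%, 24.7% and 19.1% across WT and 17.7%, 16.7% and 15.7% across cKO libraries. Without WT replicate 2 the difference went from -4.28 to -2.43 percentage points. The groups did not overlap for this share (p = 0.1 by the exact permutation test, and 0.55 adjusted over the 11 shares), and no share passed adjustment. The CPM of Foxp4 overlapped between the groups, with a log2 fold change of -0.34, and of -0.09 without WT replicate 2.

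**Figure D4:**
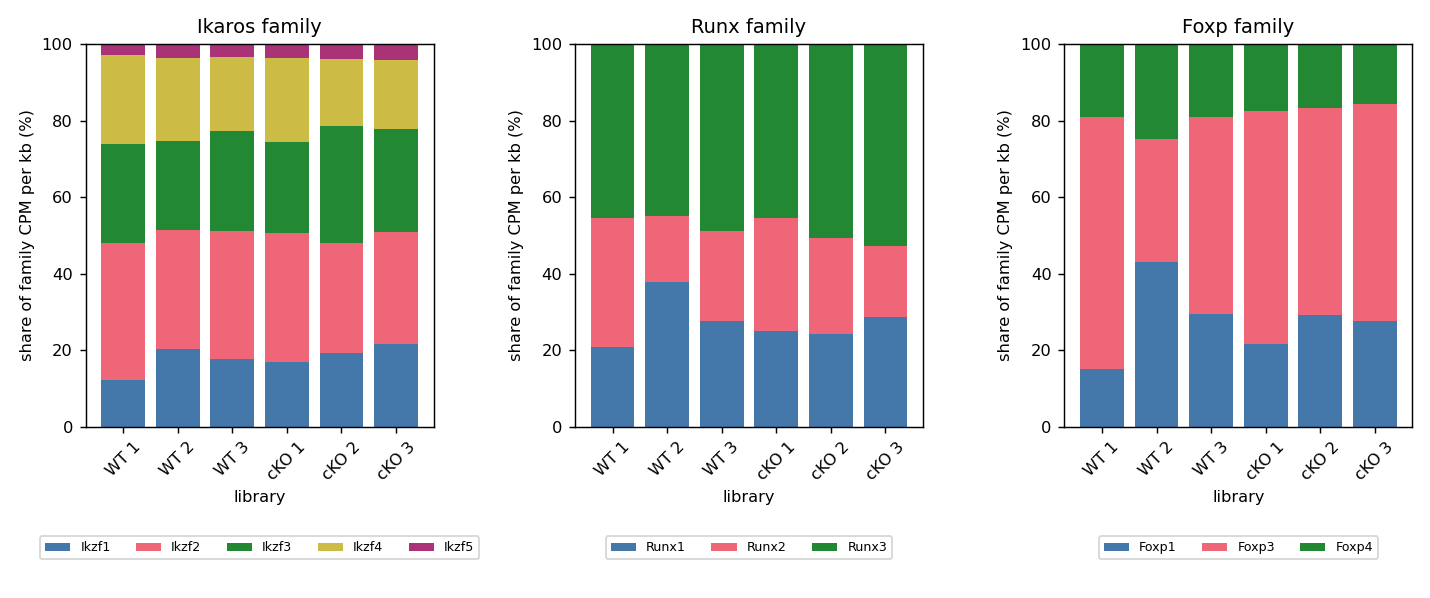
Share of each member in the summed CPM per kb of its family (y axis, %) in each library (x axis), as stacked bars for the Ikaros, Runx and Foxp families. In the Foxp family WT replicate 2 has the largest Foxp1 share (43.0%) and the smallest Foxp3 share (32.3%), and the 3 cKO libraries resemble each other more than the 3 WT libraries do, with SDs of the Foxp3 share of 3.36 and 16.8 percentage points.

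Over the 6 libraries the 5 genes with a profile most like that of Foxp3 were Med24, Pla2g6, Nup155, Lipe and Phlpp1. Their root mean square differences from it in centred log2(CPM + 0.5) were 0.066, 0.071, 0.072, 0.079 and 0.081, among 8446 genes compared. Med24 was at 41.4, 24.3 and 33.1 CPM across WT and 42.2, 31.2 and 37.1 CPM across cKO libraries. As for Foxp3, WT replicate 2 was the lowest library and cKO replicate 1 the highest. None of the 9 partners was close. The nearest, Runx3, was at 0.23 and ranked 1103, and the farthest were Satb1 at 0.76 and Foxp1 at 0.77.

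Among other transcription factors known to bind with Foxp3 no difference between the genotypes was called. Of 17, 5 were higher and 12 lower in cKO, with a median log2 fold change of -0.06 (0.05 without WT replicate 2), and 0 passed an unadjusted p under 0.05 in either fit, beside the 1.81% and 3.01% of all genes given above. The groups overlapped for all 17 over all libraries, where they were apart for 8.24% of all genes. Without WT replicate 2 they were apart for 2, Rela and Ets1, beside 16.0% of all genes. The most abundant were Ets1, Jun and Rora, with log2 fold changes of -0.02, 0.08 and -0.25. Jun, a subunit of AP-1, was at 660, 1620 and 1150 CPM across WT and 1270, 1090 and 1280 CPM across cKO libraries, with WT replicates 1 and 2 at the 2 ends as for Satb1. Rora, a nuclear receptor, was at 867, 967 and 772 CPM across WT and 854, 710 and 634 CPM across cKO libraries, and the groups overlapped. Of 6 detected relatives of the 10 genes, 4 were higher and 2 lower, and the most abundant, Runx2, Foxp4 and Ikzf5, had log2 fold changes of -0.05, -0.34 and 0.14.

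Among 18 enzymes and chromatin proteins that act on Foxp3 or with it, 7 were higher and 11 lower in cKO, with a median log2 fold change of -0.15, and -0.05 without WT replicate 2. None passed an unadjusted p under 0.05 in either edgeR fit, beside 1.81% and 3.01% of all genes, shares that leave few calls to expect in 18 genes. The most abundant were Ncor1, a corepressor, at 280, 502 and 351 CPM across WT and 319, 295 and 310 CPM across cKO libraries, Hdac7, a histone deacetylase found with Foxp3, and Ctbp1, the corepressor that Eos brings. Their log2 fold changes were -0.29, -0.20 and 0.09. Stub1, an E3 ligase that marks Foxp3 for degradation, was the one gene of the list whose groups did not overlap over all libraries, beside 8.24% of all genes, and is named for that reason after its values were seen. Without WT replicate 2 the groups were apart for 4 of the 18 (Stub1, Hdac7, Usp21 and Trim28), beside 16.0% of all genes. It was at 63.3, 103 and 63.3 CPM across WT and 63.0, 51.6 and 53.1 CPM across cKO libraries. WT replicate 1 and cKO replicate 1 were nearly equal, and the log2 fold change went from -0.45 to -0.18 without WT replicate 2.

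Among the 20 genes that control Foxp3 transcription no difference was called. Of them 6 were higher and 14 lower in cKO (median -0.08 on the log2 scale), and 9 were higher and 11 lower without WT replicate 2 (median -0.04). None had an unadjusted p under 0.05 in either edgeR fit, beside 1.81% and 3.01% of all genes, shares that leave few calls to expect in 20 genes. The groups were apart for 2 of the 20 without WT replicate 2, Foxo1 and Foxo3, beside 16.0% of all genes. Nr4a1, which is induced by T cell receptor signals and binds the Foxp3 locus, was at 865, 2270 and 1410 CPM across WT and 1160, 993 and 1470 CPM across cKO libraries. The IL-2 receptor subunits Il2rb and Il2rg, whose signal through STAT5 sustains Foxp3, both had log2 fold changes of 0.08. Both were highest in WT replicate 1, at 1530 and 1390 CPM.

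Among genes that Foxp3 is known to raise no difference was called. Of 20, 15 were lower and 5 higher in cKO, with a median log2 fold change of -0.11, beside 0.04 over all genes. Without WT replicate 2 it was 18 lower and 2 higher with a median of -0.21, beside -0.01 over all genes. The share of all genes that were lower was not counted. Genes that vary together between libraries are not separate observations. The median of -0.11 was within the spread of that median between single libraries of a group (SD 0.19), and the -0.21 was slightly beyond it. This SD was taken over all libraries, WT replicate 2 included, and is not the error of a difference between group means. At an unadjusted p under 0.05, 0 of the 20 were called in either edgeR fit, beside 1.81% and 3.01% of all genes. In the fit without WT replicate 2, 9 of 9 myeloid and 7 of 7 B and plasma cell markers were higher in cKO, and their part in the lower values of these 20 genes was not tested. The median was 0.00 without WT replicate 1 and -0.05 without cKO replicate 3. Ctla4, an inhibitory receptor, was at 1260, 1400 and 1250 CPM across WT and 1120, 1240 and 875 CPM across cKO libraries. It was the 1 gene of the 20 whose groups did not overlap, beside 8.24% of all genes. The gap was smaller than the spread within either group. Tnfrsf4, which encodes OX40, was at 3070, 1900 and 1680 CPM across WT and 1880, 1920 and 1660 CPM across cKO libraries, and Tigit had a log2 fold change of 0.08. The summed CPM of the 20 genes was 12600 in WT replicate 1, where the other 5 libraries had 7810 to 9830.

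The paper reports that a set of genes which FOXP3 binds and lowers was enriched in tumor Tregs of cKO mice. That set is not the list used here, and its test was not repeated. Of 18 genes that Foxp3 is known to repress, 8 were higher and 10 lower in cKO, with a median log2 fold change of -0.03. Without WT replicate 2 it was 9 and 9 with a median of 0.00. In that fit 1 gene was higher and 1 lower of the 18 at an unadjusted p under 0.05, beside 3.01% of all genes, and neither passed adjustment with edgeR. The higher was Actn1, which encodes an actin crosslinker, at 48.6, 107 and 70.6 CPM across WT and 83.8, 72.0 and 102 CPM across cKO libraries, with a log2 fold change of 0.53 in that fit and 0.19 over all libraries. The lower was Il4, a cytokine gene, at 1.05, 1.55 and 2.76 CPM across WT and 0.835, 0.625 and 0.889 CPM across cKO libraries. The most abundant, Id2, Ptpn22 and Il7r, had log2 fold changes of -0.33, -0.03 and 0.19, and the groups overlapped for each. Over all libraries the groups were apart for 1 of the 18, Il4, beside 8.24% of all genes. Without WT replicate 2 they were apart for 3 (Il4, Actn1 and Cd40lg), beside 16.0% of all genes.

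Transcripts of other cells were present, with summed levels that overlapped between the genotypes and single markers that were mostly higher in cKO. Of the 9 listed myeloid markers 8 were higher in cKO (median log2 fold change 0.82), and 9 without WT replicate 2 (median 1.06). B and plasma cell markers were higher for 4 of 7 (median 0.44), and for 7 without WT replicate 2 (median 0.97). All 7 listed markers of red blood cells and megakaryocytes were higher (median 2.42), and 6 without WT replicate 2 (median 1.85). In WT replicate 2 these 7 summed to 0 CPM. Myeloid markers summed to 160, 653 and 609 CPM across WT and 213, 435 and 835 CPM across cKO libraries, which leaves WT replicate 1 and cKO replicate 1 as the lowest. B and plasma cell markers summed to 15.1, 70.1 and 26.8 CPM across WT and 12.6, 33.5 and 52.6 CPM across cKO libraries. WT replicate 1, with the least Foxp1 and Satb1, was thus low in both sums. WT replicate 2, with the most of both genes, was the highest of the WT libraries in both. Single genes carried much of these sums, with Lyz2 at 474 CPM and Jchain at 41.7 CPM in WT replicate 2. Against WT replicate 1, WT replicate 2 was higher for 6 and lower for 3 of the 9 myeloid markers. For the 7 B and plasma cell markers it was higher for 4 and lower for 2. The highest myeloid sum was in cKO replicate 3, where Foxp1 was at 226 CPM, as in WT replicate 3. The part of other cells in the spread of Foxp1 and Satb1 was not tested. Listed were 9 of 10 myeloid markers, without Mpo, and 7 of 8 B and plasma cell markers, without Ighm. Ly6g, a marker of neutrophils, was at 0 to 0.133 CPM. S100a8, another myeloid marker of the list, was at 0.335, 7.05 and 3.02 CPM across WT and 3.80, 3.84 and 5.43 CPM across cKO libraries. Without WT replicate 2 the groups of S100a8 were apart, beside 16.0% of all genes. Markers of CD8 T and NK cells (6 of 8 listed) summed to 5.26 to 27.2 CPM in WT and 25.6 to 29.0 CPM in cKO libraries, with Cd8a at 0 and Cd8b1 at 5.22 CPM in WT replicate 2. Those of epithelium, stroma and endothelium (10 of 10) summed to 96.2 to 180 and 111 to 151 CPM, and those of red blood cells and megakaryocytes (7 of 8) to 0 to 42.1 and 19.9 to 62.2 CPM. In these lists Pax5 (over all libraries), and Hbb-bs and Hba-a2 (without WT replicate 2), were higher in cKO at unadjusted p-values of 0.0441, 0.0263 and 0.0232 from edgeR that did not pass adjustment. Pax5 was near the floor, with 0, 0 and 1 counts across WT and 0, 13 and 17 counts across cKO libraries. Y-linked genes were detected in all libraries, with sums of 219 to 303 CPM in WT and 223 to 262 CPM in cKO.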

How the data were processed

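RNA-Seq libraries of tumor-infiltrating Tregs (SMARTER mRNA-seq kit, paired-end reads) were available for 3 WT and 3 cKO samples, grouped by title. The values that the authors deposited are expected counts for each gene symbol, without normalization, from reads aligned to GRCm38. The submitters' processing notes name Bowtie2 2.3.4.3 and RSEM 1.3.1. Such counts divide reads shared by genes, and 21.6% of the values were not whole. They were rounded, and the 15315 genes with at least 1 count were tested with edgeR (version 4.0.16, R 4.3.3), using TMM scaling, the quasi-likelihood test and Benjamini-Hochberg adjustment over all genes. The study used DESeq2, which is an alternative here. Intervals at 95% were derived from the F statistic and its degrees of freedom. No 2 replicates agreed within sampling noise, and each counted as 1 sample. Positions and exon lengths came from GENCODE vM21 (14783 of 15319 symbols matched), and promoters from RefSeq.

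The genes, lists and tests were chosen with earlier results of these data known, the lists from general knowledge of Tregs. Named were the 10 genes, the 3 most abundant genes of each list, list genes with an unadjusted p under 0.05 with or without WT replicate 2, Xrcc6, and the 5 genes most like Foxp3 among those with a mean of at least 10 CPM. Genes outside this rule were chosen after their values were seen: Tcf7, Lef1, Bach2, Ccr8, Capg, Fgl2, Gpr83, Icos, Lrrc32, Il10, Stub1, Usp21, Trim28, Foxo1, Foxo3, Rela, Cd40lg, Mpo, Ighm, Ly6g and S100a8. Alternatives were median-of-ratios scaling, DESeq2 (version 1.42.0), filterByExpr, scaling by library size only, a robust dispersion, limma (version 3.58.1) voomWithQualityWeights, the replicate number as a block, shares without exon length, and each library left out. The fits were tested on simulated data.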

Additional observations from a re-analysis of the deposited data

How the results depend on the processing

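The 10 genes stayed without an adjusted p under 0.05 in every fit run, and over all genes and fits their log2 fold changes kept their direction 125 times and reversed 15 times. Without WT replicate 2, Runx1 turned to 0.05 and Foxp1 to 0.31 (0.05 and 0.30 with DESeq2 on these libraries, and 0.02 and 0.24 with voomWithQualityWeights, which weights libraries). Ikzf3 was at 0.00 with DESeq2 and with median-of-ratios scaling. Leaving out 1 library gave -0.10 to 0.22 for Ikzf1, -0.07 to 0.06 for Ikzf3, -0.23 to 0.05 for Runx1, -0.57 to 0.31 for Foxp1 and -0.22 to 0.61 for Satb1, and kept the sign of Foxp3 (0.08 to 0.41), Ikzf2 (-0.38 to -0.17), Ikzf4 (-0.46 to -0.19), Runx3 (0.01 to 0.18) and Cbfb (0.08 to 0.18). The causes were not tested. Satb1 reversed without WT replicate 1 (-0.22) and without cKO replicate 3 (-0.02). The median of the 10 genes was -0.03 with library size only and ranged from -0.15 (without WT replicate 1) to 0.09 with a library left out. That of the relatives ranged from 0.08 to 0.20, and that of the chromatin list from -0.20 to -0.05, with -0.05 without WT replicate 2 in edgeR and DESeq2. Cutting 1 library moved the share differences of Runx1 from -6.75 to 1.78, Runx2 from -4.25 to 3.94 (2.41 without cKO replicate 3), Foxp1 from -9.98 to 4.03 and Foxp3 from -1.60 to 15.2 percentage points.

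Over all genes edgeR called 0 higher and 0 lower at an adjusted p under 0.05, and 144 higher and 133 lower at an unadjusted one. DESeq2 called 1 higher and 1 lower with adjustment, and 1 and 2 without WT replicate 2, where edgeR called 1 lower. At an unadjusted p, DESeq2 gave 95 higher and 212 lower, filterByExpr 39 and 101, and voomWithQualityWeights 262 and 281, with 45 to 287 higher and 20 to 601 lower as a library was left out. Same-numbered libraries correlated at 0.126, -0.054 and 0.196 after removal of group means, and different-numbered ones at -0.238 to 0.102. The main fit did not take the numbers to pair libraries, and whether a batch follows the number was not tested. The replicate block gave 39 higher and 46 lower, with 0.26 for Foxp3, and changed no call of the 10 genes.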
